A study of Xenopus tropicalis with 2 samples.

Results

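Axon guidance genes encode the cues and the receptors by which growing axons choose their path. They were taken from the gene names by family, as ephrins and Eph receptors, slits and robos, netrins and their receptors, semaphorins with neuropilins and plexins, rgma and rgmb, and spon1. The name pattern matched 44 genes, and each had at least 1 UMI (a unique molecular identifier, which marks 1 captured transcript) in called cells, of 13295 genes with any. The pattern also picked up unc50, which encodes a protein of membrane trafficking and is no guidance receptor. The 44 members are thus 43 guidance genes and unc50, which stayed in all counts of members except those of ligands and receptors. No member was named dcc, neo1, slit2 or robo2, so these genes were not read. The only netrin receptors among the members were unc5a and unc5d-like.1.

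The study prepared 1 single-cell RNA-seq library from tail tips of uninjured Xenopus tropicalis tadpoles and 1 from tails that had regenerated for 24 hours post amputation (24hpa). The posterior end of the tail was removed at NF stage 41, at 3 days post fertilization, and cells of about 500 tails were pooled. Every tadpole carried the pax6:GFP reporter together with the cryga:RFP and actc1:RFP reporters of the same line, and only cells above the GFP gate were kept. The reporter marks a broad band of the spinal cord and not every progenitor, and the gate also passed muscle, notochord, epidermal and other cells. The uninjured library held 48622597 UMIs and 2617 called cells, of which 780 were in the deposited neural table. The 24hpa library held 32798976 UMIs and 1090 called cells, of which 295 were neural. With 1 library per group, no test between groups was possible, and injury, any difference in age, the tissue taken and the library cannot be told apart.

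Guidance cues attract or repel the growth cone at the tip of an axon. Slits, which signal through robos, and netrins, which signal through DCC and UNC5 receptors, are classical products of the floor plate at the ventral midline of the vertebrate spinal cord. Semaphorins act through plexins, with neuropilins as co-receptors for the secreted class 3 members, and ephrins and Eph receptors signal between touching cells. Several of these genes also act outside the nervous system, for example in blood vessels.

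Levels are UMIs of a gene scaled to all UMIs of the cells summed (counts per 1e+06, CPM), with exact Poisson intervals, and a difference is the log2 ratio of CPM at 24hpa over uninjured, with its exact conditional interval. All intervals are 95% intervals and cover counting error only. The count of 3' tags gives 1 UMI per captured transcript, so levels of different genes can be set side by side only as captured tags. A gene was called higher or lower past a 2-fold ratio, which is a description and no test.

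Cluster names are those of the deposited tables, and most carried their markers. The cells labelled Dopaminergic Neurons held 4985 CPM (uninjured) and 4013 CPM (24hpa) of the Kolmer-Agduhr markers pkd2l1 and pkd1l2, which mark cerebrospinal fluid-contacting neurons. Cells labelled Myotome held little of the muscle list (2054 and 628 CPM). They held more of the notochord list (3186 and 7635 CPM), which includes collagens, and of the mesenchyme list (2137 and 3079 CPM). Those labelled Dermomyotome held 102865 and 172376 CPM of the muscle list. RNA outside cells was estimated at 9.14% of the neural UMIs of uninjured tails and 2.74% at 24hpa. A single cell barcode occurred in both libraries.

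The floor plate held the highest levels of several midline cues in uninjured tails. This cluster held 23 uninjured cells and 1 cell at 24hpa, so the levels that follow are from the uninjured library. Slit1 (Xetrov90017737m.g), a repellent ligand of robos, stood at 751 CPM from 171 UMIs. Spon1 (Xetrov90010372m.g), which encodes F-spondin, an extracellular matrix protein that acts on axons, stood at 329 CPM from 75 UMIs. Both genes were lower in every other neural cluster of that library, at 78.2 CPM or less for slit1 and 49.4 CPM or less for spon1. Ntn1-like.2 (Xetrov90025674m.g), a netrin 1 gene, reached 163 CPM in floor plate and 55.2 CPM in progenitors. Sema3e (Xetrov90008327m.g), a secreted semaphorin that in mouse binds plexin D1 directly, reached 123 CPM in floor plate, against 16.9 CPM or less in the other neural clusters. The floor plate also held rgma (127 CPM), sema3f-like.1 (149 CPM), nrp1 (110 CPM) and plxnb2 (70.3 CPM). The 4 floor plate markers foxa1, foxa2, shh and vasn summed to 852 CPM there, and the notochord list to 8517 CPM, nearly all from the collagens col2a1 (5029 CPM) and col8a1 (3413 CPM), with the notochord gene t at 0. The part of these transcripts in the floor plate levels was not tested.

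Over both tables, 31 members had at least 100 UMIs in called cells, and their highest cluster was read from the mean of the libraries with at least 5 cells of it. Floor Plate was the highest cluster for 9 of these 31, ROC (regeneration-organizing cells) for 4 and Mesenchyme for 4. Motor Neuron, Motor Neuron (leptin+) and Other 1 led for 3 each. Vulnerable Motor Neuron and Dopaminergic Neurons led for 2 each and Interneurons for 1. Among the 20 ligands, 13 were highest in a neural cluster and 7 outside, and among the 10 receptors 6 and 4. In 7 members the highest cluster exceeded the next by at least 3-fold, namely slit1 (4.63), sema3e (4.30) and ntn1-like.2 (3.65) in floor plate, sema3b (7.21) and sema3a (5.64) in ROC, plxnb3 (4.09) in Other 1 and sema3f (3.55) in Mesenchyme. None of these counts was made over all genes, so they cannot show a trait particular to guidance genes. Floor Plate entered with its uninjured level alone, from 23 cells. Its lead over the next cluster was small for efnb2 (48.3 against 39.2 CPM) and rgmb (30.7 against 27.8 CPM). In the uninjured library by itself it led for 7, with efnb2 highest in Bipotent Progenitor and nrp1 in Myotome, and the highest cluster was the same for 21 of 31. In the 24hpa library by itself it was the same for 12, but a cluster needed 20 cells there. Floor Plate (1 cell), Dopaminergic Neurons (8 cells) and Other 1 (14 cells) could not lead, so the members they led for had to change.

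**Figure D1:**
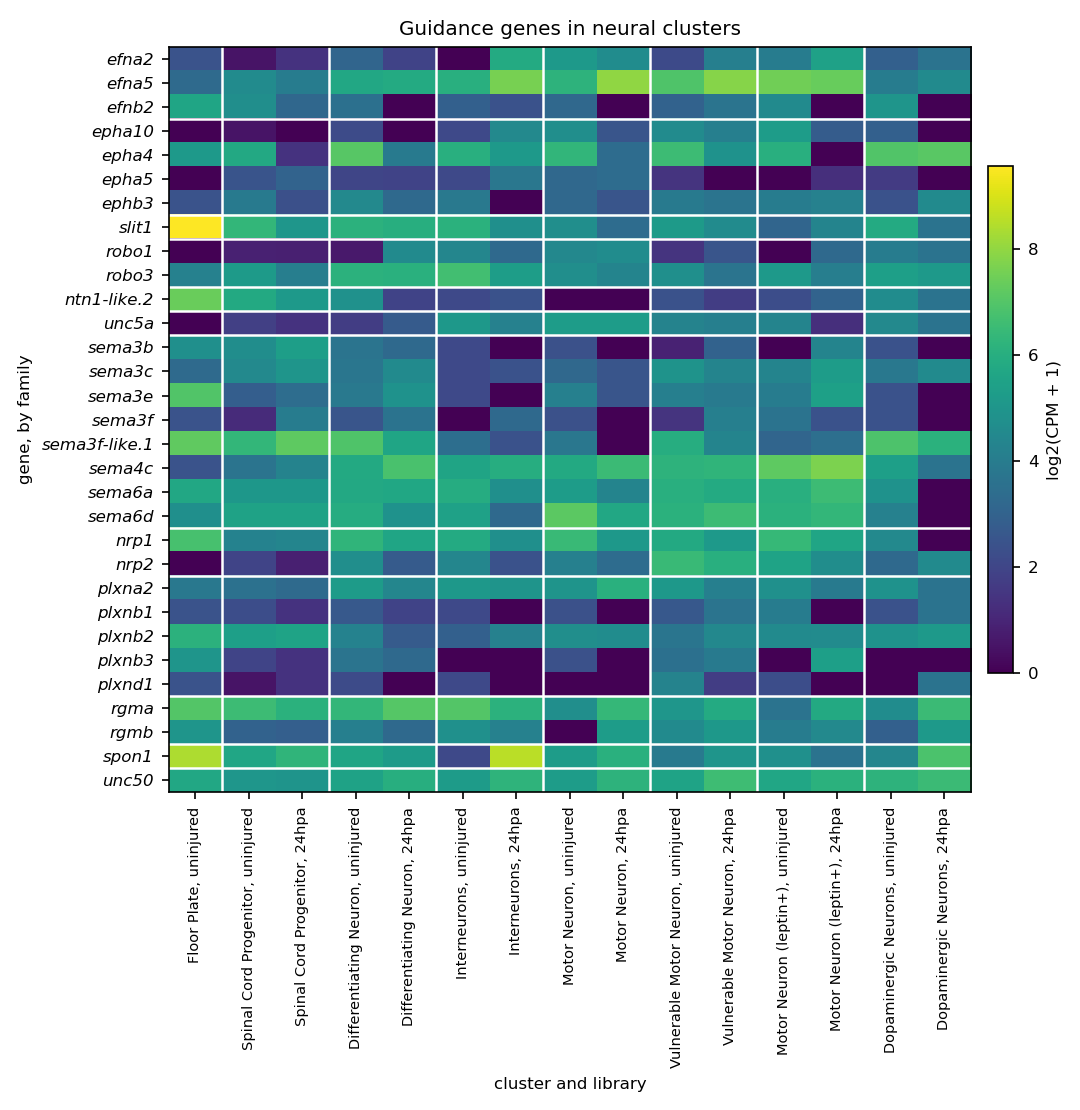
Levels of the 31 members with at least 30 UMIs in neural cells, as log2(CPM + 1), by gene (rows, grouped by family) and by neural cluster and library (columns with at least 5 cells). Slit1, spon1, ntn1-like.2 and sema3e are brightest in uninjured floor plate, efna5 and sema4c in neurons, and spon1 in interneurons at 24hpa.

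Neurons held a different set. Efna5 (Xetrov90002751m.g), a membrane-anchored ephrin A ligand, stood at 179 CPM in uninjured Motor Neuron (leptin+), 121 CPM in Vulnerable Motor Neuron and 23.4 CPM in progenitors. Sema4c (Xetrov90009113m.g), a transmembrane semaphorin, stood at 144 CPM in uninjured Motor Neuron (leptin+) and 11.7 CPM in progenitors. Sema6d (Xetrov90008786m.g), a transmembrane semaphorin that signals through A-type plexins, was at 140 CPM in uninjured Motor Neuron. Efna5 and sema4c were thus higher in motor neuron clusters than in progenitors of the same library. Not every neuron cluster followed, since Dopaminergic Neurons held 15.3 CPM of efna5 and 17.5 CPM of sema6d, against 44.8 CPM of sema6d in progenitors. Nrp2 (Xetrov90023966m.g), a co-receptor of class 3 semaphorins, stood at 88.5 CPM in uninjured Vulnerable Motor Neuron and 45.6 CPM in Motor Neuron (leptin+), and the other uninjured neural clusters held 25.3 CPM or less. Plxnd1 (Xetrov90012694m.g), the plexin that mouse Sema3e binds, had 31 UMIs in uninjured neural cells, of which 21 were in Vulnerable Motor Neuron. Robo3 (Xetrov90018418m.g), a robo that in mammals controls midline crossing, was highest in uninjured interneurons at 100.2 CPM. The small counts of epha10, an Eph receptor without kinase activity, and unc5a, a netrin receptor, were likewise mostly in neurons.

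In neural cells as a whole, 31 of the 44 members had the 30 UMIs over both libraries that were asked for, and 13 did not. At 24hpa 3 members were at least 2-fold higher, against 8.07% of all 8991 genes compared, and 5 were at least 2-fold lower, against 8.01%. The count of higher members was near that background and the count of lower members, 16.1%, was above it. The median log2 ratio was 0.04 over the members and 0.10 over all genes, and trimmed mean of M values (TMM) scaling moved every log2 ratio here by -0.09. On the TMM scale 6 members were lower (background 9.09%). Without cells over 2 times the median UMIs of their cluster and library, 2 of 29 were lower, against 726 of 8582 genes.

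Epha4 (Xetrov90014821m.g), a receptor for both classes of ephrin, had the lowest ratio of the 31. It had 585 UMIs (87.0 CPM, 80.1 to 94.3) in uninjured neural cells and 41 UMIs (12.5 CPM, 9.00 to 17.0) at 24hpa, giving a log2 ratio of -2.79 (interval -3.29 to -2.34). The intervals of the libraries were far apart. A UMI of epha4 was found in 37.7% of uninjured neural cells and 7.8% at 24hpa, and in 17.7% and 3.65% of cells thinned to 2600 UMIs. In Small Secretory Cell 1, a class outside the nervous system, the share was 1.92% in the uninjured library (313 cells) and 0 in the 146 cells of the other (exact upper limit 2.49%), at median depths of 4885 and 6282.5 UMIs per cell against 7353 and 8473 in neural cells. Epha4 stood at 14.6 CPM in RNA outside cells of the uninjured library and 3.75 CPM at 24hpa, both below the level in neural cells of the same library.

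The lower level of epha4 was found in several neural clusters separately. Spinal cord progenitors had 129 UMIs (54.0 CPM) in 273 uninjured cells and 2 UMIs (1.61 CPM) in 71 cells at 24hpa, both from 1 cell, a log2 ratio of -5.06 (-8.12 to -3.18). Differentiating neurons had 229 UMIs (135 CPM) and 5 UMIs (14.2 CPM), a ratio of -3.25 (-4.89 to -2.01). Both progenitors and their first neuronal progeny thus held little of this receptor in the 24hpa library. Motor Neuron (-3.00, -6.15 to -0.94) and Vulnerable Motor Neuron (-1.73, -2.72 to -0.86) were also past 2-fold. Motor Neuron (leptin+) had 17 UMIs in 27 uninjured cells and none in 68 cells at 24hpa, where an exact upper limit is 5.34 CPM. Interneurons had 63.5 CPM (38.2 to 99.1) and 34.4 CPM (14.9 to 67.8), and their intervals overlapped. Dopaminergic Neurons held 125 CPM from 57 UMIs and 136 CPM from 12 UMIs, the latter in only 8 cells at 24hpa. A difference between the clusters could not be tested across samples.

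**Figure D2:**
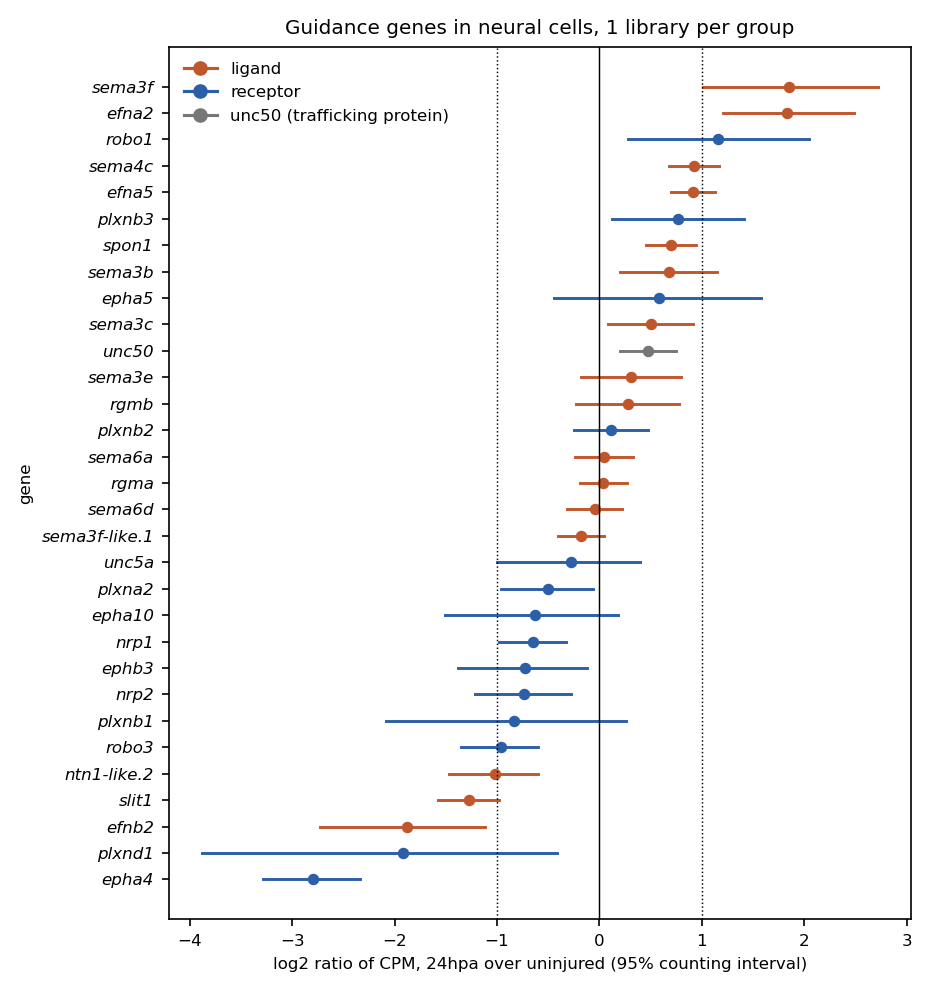
Log2 ratio of CPM (24hpa over uninjured, x axis) in neural cells for the 31 members with at least 30 UMIs (y axis), with 95% counting intervals as bars and the 2-fold lines dotted. Epha4 is lowest at -2.79 and sema3f highest at 1.85, and most receptors lie left of 0 and most ligands right of it.

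Of the other 4 lower members, slit1 had 572 UMIs (85.1 CPM) in uninjured neural cells and 115 UMIs (35.2 CPM) at 24hpa, a log2 ratio of -1.27 (-1.58 to -0.98). Of these UMIs 171 and 22 came from the floor plate cluster, and without that cluster the ratio was -1.10. With both libraries weighted to the uninjured makeup of clusters slit1 stood at -0.56, short of 2-fold. That weighting gave the 1 floor plate cell at 24hpa the weight of all 23 uninjured floor plate cells, so it cannot show the part of makeup. Ntn1-like.2 had 234 UMIs (34.8 CPM) and 56 UMIs (17.1 CPM), a ratio of -1.02 (-1.47 to -0.60), and -0.94 without the floor plate. Efnb2 (Xetrov90005973m.g), a transmembrane ephrin, had 121 UMIs (18.0 CPM) and 16 UMIs (4.89 CPM), a ratio of -1.88 (-2.73 to -1.12). Plxnd1 had 31 UMIs and 4 UMIs, a ratio of -1.91 (-3.88 to -0.41) with a wide interval. Epha4, efnb2 and, where it had enough UMIs, plxnd1 had a ratio past 2-fold lower under every other scaling, weighting and choice of cells tried.

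The 3 higher members all had fewer than 100 UMIs. Efna2 (Xetrov90001460m.g), an ephrin A ligand, had 34 UMIs (5.06 CPM) and 59 UMIs (18.0 CPM), a log2 ratio of 1.84 (1.2 to 2.49), and 0.97 when weighted to the uninjured makeup. Sema3f (Xetrov90012565m.g), a secreted semaphorin that signals through neuropilin 2, had 20 UMIs (2.97 CPM) and 35 UMIs (10.7 CPM), a ratio of 1.85 (1.02 to 2.72). Robo1 (Xetrov90004178m.g), a slit receptor, had 23 UMIs and 25 UMIs, a ratio of 1.16 (0.28 to 2.04). A pair of abundant ligands lay just inside the 2-fold line. Efna5 had 376 UMIs (55.9 CPM) and 345 UMIs (106 CPM), a ratio of 0.92 (0.70 to 1.13). Sema4c had 290 UMIs (43.1 CPM) and 267 UMIs (81.7 CPM), a ratio of 0.92 (0.68 to 1.17). Their levels in the 2 libraries did not overlap within counting error. Weighted to the uninjured makeup of clusters, efna5 stood at 0.58 and sema4c at 0.52. Without Motor Neuron (leptin+) they stood at 0.83 and 0.35, and by the mean of CPM per cell at 1.31 and 1.28.

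Ligands and receptors differed in their direction, a division made after the values were known. Of 14 receptors with enough UMIs, 10 had a ratio below 0 and the median was -0.64. Of 16 ligands, 11 had a ratio above 0 and the median was 0.30. The interval lay wholly below 0 for 7 receptors and above 0 for 2, and wholly above 0 for 7 ligands and below 0 for 3. The median over all genes was 0.10. No such counts by sign or interval stand beside these for all genes, so they cannot be read as particular to the members. The 7 lower receptors were epha4, ephb3, robo3, nrp1, nrp2, plxna2 and plxnd1, which belong to the Eph, robo, neuropilin and plexin families. Robo3 had 301 UMIs (44.8 CPM) and 75 UMIs (22.9 CPM), a ratio of -0.96 (-1.35 to -0.59). Nrp1 (Xetrov90015633m.g), the co-receptor for Sema3A, had 329 UMIs (48.9 CPM) and 102 UMIs (31.2 CPM), a ratio of -0.65 (-0.98 to -0.32). Nrp2 stood at 26.5 and 15.9 CPM, a ratio of -0.73 (-1.21 to -0.28). The median of the receptors was below that of the ligands in each of the 6 neural clusters compared, for example -1.12 and -0.17 in differentiating neurons and -0.81 and 0.75 in Motor Neuron (leptin+), but these clusters come from the same pair of libraries. In Notochord (0.76 and -0.31), ROC (0.82 and -1.03) and Small Secretory Cell 1 (-0.66 and -0.74) the receptors had the higher median. They had the lower median in every other cluster compared outside the neural table. Examples were Skeletal Muscle (-2.75 and -1.91) and Mesenchyme (0.17 and 0.59). The order was thus not particular to neural cells. Interneurons and Motor Neuron held only 3 receptors each with enough UMIs.

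Summed by family, Eph receptors stood at 115 CPM in uninjured neural cells and 32.7 CPM at 24hpa, a log2 ratio of -1.81 (-2.12 to -1.52). Epha4 gave 585 of the 773 UMIs in uninjured cells and 41 of 107 at 24hpa. Slits (-1.23), netrins (-0.89), neuropilins (-0.68) and robos (-0.66) were also past 1.5-fold lower. Ephrins stood at 79.0 and 128 CPM, a ratio of 0.70 (0.51 to 0.89), of which efna5 was the larger part. Spon1 stood at 47.0 and 76.2 CPM, a ratio of 0.70 (0.45 to 0.94). Semaphorins, with 13 members the largest family, stood at 280 and 334 CPM, a ratio of 0.26 (0.15 to 0.37). Plexins (-0.06), rgma with rgmb (0.08) and the UNC5 receptors (-0.12) had intervals that included 0. Within families the members did not all follow the sum: without the most abundant member the ratio was 1.16 for robos, where only robo1 was left.

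Rgma (Xetrov90008964m.g), a repulsive cue anchored to the membrane, was among the most abundant members and differed little, with 71.4 and 73.4 CPM (0.04, -0.19 to 0.27). Plxnb2 (Xetrov90008194m.g), a plexin receptor for class 4 semaphorins, stood at 27.7 and 29.98 CPM, and sema6a (Xetrov90003310m.g), a transmembrane semaphorin, at 46.2 and 47.7 CPM. These totals held differences between clusters. Rgma was 3 UMIs and 38 UMIs in Motor Neuron (leptin+) (2.27, 0.61 to 4.61) and 6 UMIs and 17 UMIs in Motor Neuron (1.67), but 93.3 and 68.6 CPM in progenitors.

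**Figure D3:**
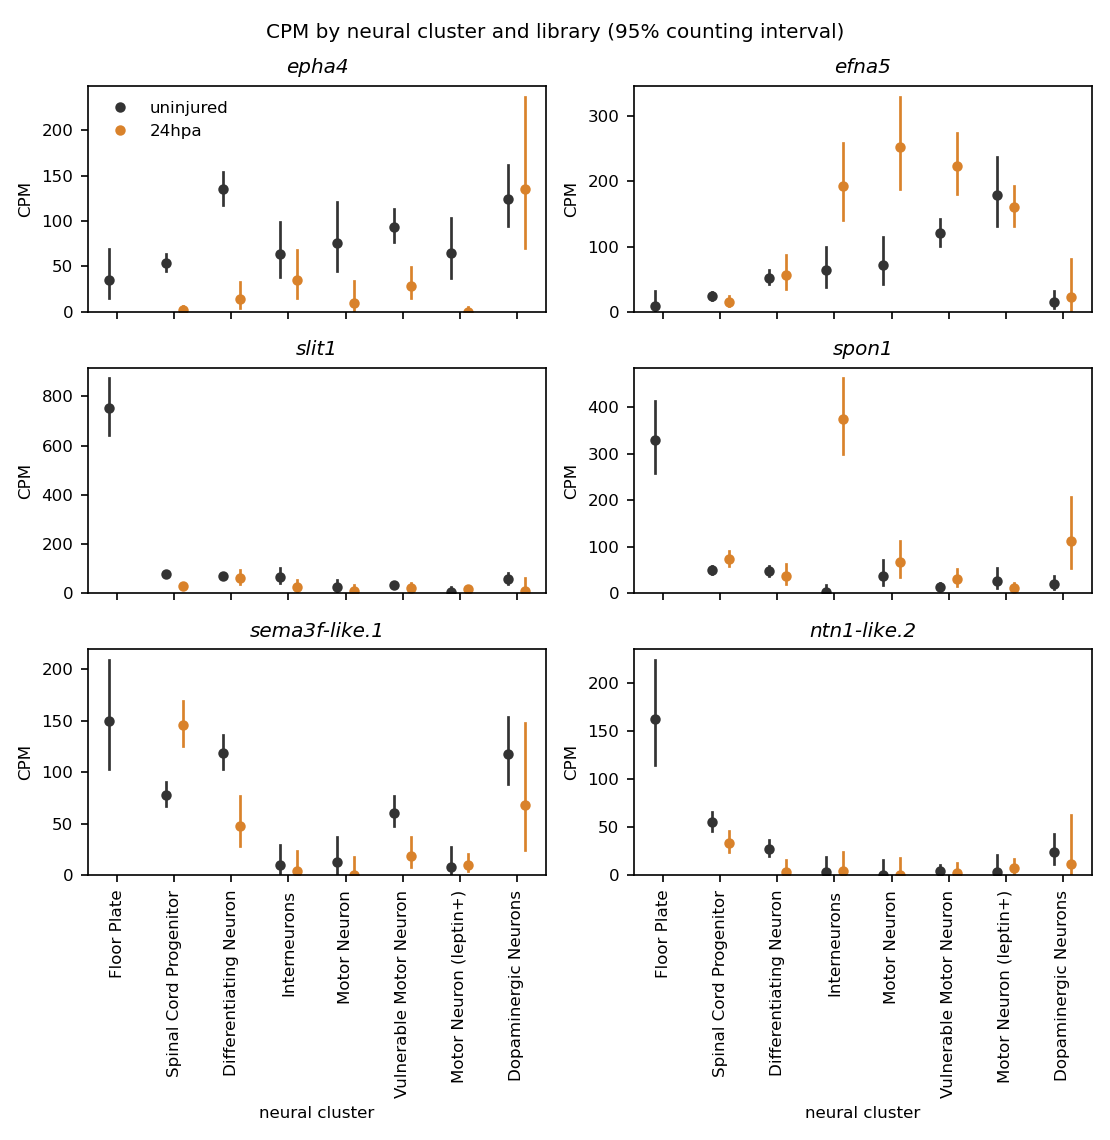
CPM (y axis) of 6 members in each neural cluster (x axis), uninjured in dark grey and 24hpa in orange, with 95% counting intervals, for clusters with at least 5 cells of the library. Epha4 is near 0 at 24hpa in progenitors, efna5 is higher at 24hpa in 3 neuron clusters, and spon1 goes from 3.34 to 374 CPM in interneurons.

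Within the 6 neural clusters with at least 20 cells per library, 100 pairs of a member and a cluster were compared. Of these 13 were past 2-fold higher, against 11.4% of all pairs of a gene and a cluster, and 24 lower, against 9.49%, so the higher count was near the background. The same gene can stand in several pairs, and all clusters come from the same libraries, so the pairs are not separate observations. In spinal cord progenitors 1 of 23 members was higher (background 6.27%) and 5 were lower (background 9.64%). Besides epha4, ephb3 (Xetrov90014689m.g), an ephrin B receptor, had 33 UMIs and 5 UMIs (-1.77, -3.49 to -0.41). Efnb2 (-1.64, -2.77 to -0.66), slit1 (-1.31, -1.85 to -0.81) and robo3 (-1.16, -1.94 to -0.44) were lower too. Sema3f was the higher one, with 3 UMIs in 273 cells and 19 UMIs in 71 cells, 11 of which held it (3.61, 1.85 to 6.01). The median depth of progenitors was 7739 UMIs per cell in the uninjured library and 14090 at 24hpa. The ratio is scaled to all UMIs, but the counts of UMIs and cells are not. Sema3f-like.1 (Xetrov90019918m.g), a second gene named for Sema3F, went from 78.2 CPM (67.4 to 90.3) to 146 CPM (126 to 169) in progenitors. The intervals of the libraries did not overlap, and the ratio was short of 2-fold. In this cluster the progenitor list stood at 4401 and 3264 CPM, the differentiating neuron list at 353 and 98.5 CPM, the motor neuron list at 171 and 40.4 CPM and the muscle list at 2341 and 624 CPM, and their part was not tested.

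In differentiating neurons 1 of 22 members was higher (background 7.45%) and 7 were lower (background 14.5%). Sema3f-like.1 was among the lower, with 202 UMIs (119 CPM) and 17 UMIs (48.2 CPM), a ratio of -1.30 (-2.11 to -0.59). Its levels in progenitors and differentiating neurons thus stood in opposite order in the libraries, and Vulnerable Motor Neuron (70 UMIs and 8 UMIs, -1.69) followed differentiating neurons. Ntn1-like.2 had 47 UMIs (27.7 CPM) and 1 UMI (2.84 CPM), a ratio of -3.29 (-8.62 to -0.74). Nrp2 had 43 UMIs and 2 UMIs (-2.16, -5.25 to -0.22), and ephb3, plxnb2 and sema6d were also lower. The intervals of ephb3 and plxnb2 included 0. Sema3e was the higher one, at 13.5 and 28.4 CPM (1.07), and its interval (-0.17 to 2.19) included 0. All these ratios rest on 31 cells at 24hpa, and the cluster's marker lists moved with them. The differentiating neuron list stood at 1298 and 962 CPM, the progenitor list at 2430 and 930.5 CPM, the interneuron list at 123 and 338 CPM and the neuron list at 4023 and 7495 CPM, and their part was not tested.

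In interneurons 2 of 10 members were higher (background 10.4%) and 4 were lower (background 6.3%). After TMM scaling 2 were higher (background 7.93%) and 6 lower (background 7.93%). Spon1 had 1 UMI in 37 uninjured cells and 87 UMIs in 27 cells at 24hpa (6.81, 4.29 to 12.13). These UMIs came from 14 of the 27 cells, with at most 17 in 1 cell, and without that cell the ratio was 6.57. Free RNA stood at 19.1 and 22.5 CPM of spon1, and the cluster at 3.34 and 374 CPM. Efna5 had 19 UMIs (63.5 CPM) and 45 UMIs (194 CPM), a ratio of 1.61 (0.81 to 2.47). Robo3 (-1.37, -2.63 to -0.26) and slit1 (-1.37) were lower, the latter with an interval that ended at 0. Sema6a (-1.22) and nrp1 (-1.14) were past 2-fold lower with intervals that included 0, and nrp1 was 0.14 by the mean of CPM per cell. The interneuron list stood at 922 and 770 CPM in this cluster, the progenitor list at 852 and 142 CPM, and the part of the latter in these results was not tested.

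In the Motor Neuron cluster 3 of 9 members were higher (background 13.2%) and 3 were lower (background 8.67%). Efna5 had 17 UMIs (72.0 CPM) and 53 UMIs (252 CPM), a ratio of 1.81 (1.00 to 2.69), followed by rgma (1.67) and plxna2 (1.17, -0.24 to 2.72), a plexin for class 3 and 6 semaphorins. Epha4 (-3.00), nrp1 (-1.42, -2.89 to -0.13) and sema6d (-1.42, -2.55 to -0.40) were lower. In this cluster the motor neuron list stood at 1347 and 490 CPM and the interneuron list stood at 110 and 538 CPM, and their part was not tested.

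In Vulnerable Motor Neuron 2 of 22 members were higher (background 13.7%) and 4 were lower (background 6.52%). On the TMM scale, which moved log2 ratios by -0.16, the split was 0 higher (background 10.1%) and 5 lower (background 8.77%). Efna5 stood at 121 and 224 CPM there, short of 2-fold. Plxnd1 had 21 UMIs and 1 UMI (-2.95, -8.32 to -0.31), followed by epha4, sema3f-like.1 and robo3 (-1.14), the last with an interval that included 0. Spon1 (1.14) and unc50 (1.06), which is no guidance gene, were the higher genes. Spon1 had 16 UMIs (13.9 CPM, 7.94 to 22.6) and 13 UMIs (30.7 CPM, 16.3 to 52.4), and these intervals overlapped. The motor neuron list stood at 1323 and 1328 CPM here, the differentiating neuron list at 494 and 54.3 CPM, the progenitor list at 297 and 146 CPM and the neuron list at 10780 and 15483 CPM, and their part was not tested.

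In Motor Neuron (leptin+) 4 of 14 members were higher (background 21.9%) and 1 was lower (background 8.76%). On the TMM scale 4 were higher (background 16.0%) and 3 lower (background 12.9%). The higher ones were rgma, plxnb3, efna2 and sema3e. Plxnb3 (Xetrov90019778m.g), a B-type plexin, had no UMI in 27 uninjured cells and 28 UMIs (40.5 CPM) in 68 cells at 24hpa, which is at least 3.56-fold higher against a floor of 3 UMIs over the group. Efna2 had 4 UMIs and 30 UMIs (1.51, 0.01 to 3.48), and sema3e 4 UMIs and 29 UMIs (1.47, -0.04 to 3.43). The lower member was robo3 (-1.10, -2.51 to 0.35), so only rgma, plxnb3 and efna2 had intervals clear of 0 here. The ephrins as a sum stood at 216 and 204 CPM. The differentiating neuron list stood at 513 and 94.0 CPM and the neuron list at 14649 and 24057 CPM, and their part was not tested.

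**Figure D4:**
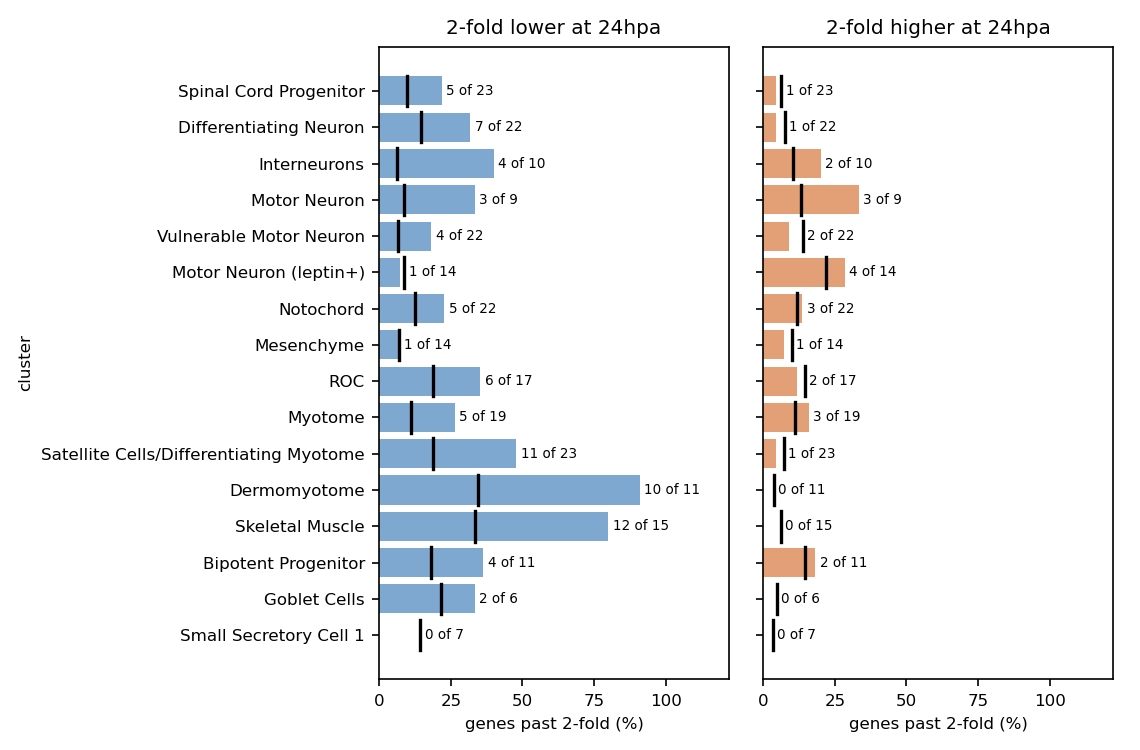
Percentage of members past 2-fold lower (left) and higher (right) at 24hpa in each cluster with at least 20 cells per library (bars, with counts), against the percentage over all genes compared in that cluster (black ticks). Lower members stand furthest above the background in Dermomyotome (10 of 11) and Skeletal Muscle (12 of 15), where the background is also highest.

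Outside the neural table, 31 members had at least 30 UMIs, and 2 were higher (background 8.31%) and 7 lower (background 12.5%) at 24hpa. Slit1 had 374 UMIs (19.0 CPM) and 583 UMIs (45.5 CPM), a log2 ratio of 1.26 (1.07 to 1.45), the opposite sign to neural cells. The cells labelled Myotome held 136 UMIs (196 CPM) in 81 of 1837 cells and 413 UMIs (129 CPM) in 184 of 795 cells. The level within that cluster was thus lower at 24hpa (-0.60, -0.89 to -0.31) while such cells made up more of the library, and the part of this makeup in the sum was not tested. Efna5 had 293 UMIs and 500 UMIs (1.39, 1.18 to 1.6), with 77.8 and 77.7 CPM in Myotome and 126 and 195 CPM in Mesenchyme. The 7 lower members were efnb2, sema3d, nrp2, robo3, sema6d, rgmb and epha4. Over the 10 clusters compared, 12 of 145 pairs of a member and a cluster were higher (background 8.69%) and 56 lower (background 18.7%). Here too genes recur over the pairs, which are not separate observations.

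Several receptors were captured in muscle clusters of uninjured tails and had few or no UMIs at 24hpa. In Skeletal Muscle 12 of 15 members were lower (background 33.3%) and none higher (background 6.21%). In Dermomyotome 10 of 11 were lower (background 34.4%) and none higher (background 3.56%). TMM scaling moved log2 ratios here by 0.48 and 0.58. On that scale 9 of 15 (background 20.9%) and 8 of 11 (background 18.6%) were lower, and 1 of the 11 was higher (background 11.3%). Robo3 had 80 UMIs (39.3 CPM) in Dermomyotome and 81 UMIs (20.03 CPM) in Skeletal Muscle of the uninjured library, and 0 and 1 UMI at 24hpa. Sema6a had 119 UMIs (29.4 CPM) and 2 UMIs (1.403 CPM) in Skeletal Muscle, a ratio of -4.39 (-7.45 to -2.51). Epha4 had 56 UMIs and none in Dermomyotome, at least 6.05-fold lower against the floor of 3 UMIs. The muscle list stood at 44407 and 82089 CPM in Skeletal Muscle, and its part in these ratios was not tested.

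In the cells labelled Satellite Cells/Differentiating Myotome 11 of 23 members were lower (background 18.7%) and 1 was higher (background 7.12%). Sema3d (Xetrov90008329m.g), a secreted semaphorin, had 100 UMIs (72.2 CPM) in 141 uninjured cells and 1 UMI (0.40 CPM) in 105 cells at 24hpa, a ratio of -7.49 (-12.81 to -4.98). Epha4 (23 UMIs and 1 UMI) and efnb2 (44 UMIs and 6 UMIs, -3.72) were lower as well. Ntn1-like.1 (Xetrov90019059m.g), the other netrin 1 gene, was the higher one, with 11 UMIs (7.94 CPM) and 66 UMIs (26.5 CPM), a ratio of 1.74 (0.81 to 2.81). After TMM scaling 10 members were lower (background 13.6%) and 2 higher (background 10.8%). The muscle list stood at 3603 and 752 CPM in this cluster, the myogenic list at 645 and 266 CPM and the differentiating neuron list at 71.4 and 1.2 CPM, and their part was not tested.

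Notochord, a source of signals to the ventral spinal cord, held 3 of 22 members higher (background 11.8%) and 5 lower (background 12.3%). After TMM scaling 2 were higher (background 8.99%) and 5 lower (background 14.6%). Ntn1-like.1 had 285 UMIs (47.9 CPM) in 291 uninjured cells and 18 UMIs (11.4 CPM) in 63 cells at 24hpa, a ratio of -2.07 (-2.84 to -1.38). In Myotome the same gene had 4 UMIs (5.76 CPM) and 92 UMIs (28.7 CPM), a ratio of 2.32 (0.91 to 4.22). The 2 netrin genes differed in where they were highest. Ntn1-like.2 led in floor plate and then progenitors, and ntn1-like.1 in Other 1 (33.9 and 40.6 CPM, from 12 UMIs and 6 UMIs) and then Notochord. Epha4 was higher in Notochord (15.3 and 31.7 CPM, 1.05, 0.53 to 1.57), as was sema3a (Xetrov90008328m.g), the classical growth cone-collapsing semaphorin (2.35 and 15.2 CPM, 2.70, 1.69 to 3.76). Rgma stood at 99.1 and 67.9 CPM there. The notochord list stood at 24125 and 15796 CPM in this cluster and the epidermis list at 11696 and 1548 CPM, and their part was not tested. Myotome itself held 3 of 19 members higher (background 11%) and 5 lower (background 11%). On the TMM scale 4 were higher (background 12.6%) and 4 lower (background 9.04%).

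ROC was the main site of sema3b (Xetrov90012571m.g), a secreted semaphorin, with 169 UMIs (244 CPM) in 88 uninjured cells and 187 UMIs (225 CPM) in 83 cells at 24hpa, a level that differed little. Sema3a had 118 UMIs (171 CPM) and 59 UMIs (70.9 CPM) there, a ratio of -1.27 (-1.74 to -0.81). In all 6 of 17 members were lower (background 18.7%) and 2 were higher (background 14.5%). On the TMM scale 5 were lower (background 18.1%) and 3 higher (background 15.5%). Sema3d (-1.92), sema3e (-1.97) and slit3 (-2.08), a second slit gene, were among the lower, and sema6a (44.8 and 103 CPM, 1.2, 0.60 to 1.85) was higher. The mesenchyme list stood at 6511 and 5362 CPM in ROC and the epidermis list at 4768 and 1995 CPM. The notochord list stood at 1928 and 811 CPM there, and the part of these lists was not tested. Mesenchyme held 1 of 14 members higher (background 10%) and 1 lower (background 6.96%). The higher was sema3a (1.79, 0.26 to 3.61) and the lower sema3d (-1.06, -1.85 to -0.32), and sema3f stayed at 47.9 and 53.2 CPM. After TMM scaling 1 member of Mesenchyme was higher (background 8.98%) and 2 were lower (background 7.95%).

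In Bipotent Progenitor 4 of 11 members were lower (background 18%) and 2 higher (background 14.4%). The lower ones included 3 genes known from blood vessels. Efnb2, a mark of arteries, had 43 UMIs and none, plxnd1, a receptor of endothelium, 31 UMIs and none, and nrp1, also a co-receptor for vascular endothelial growth factor, 53 UMIs and 8 UMIs. Of the 87 uninjured cells, 11 held a UMI of the endothelial markers cdh5, tek or kdr, and these 11 cells carried 35 of the 43 UMIs of efnb2, 28 of the 31 of plxnd1 and 42 of the 53 of nrp1. None of the 36 cells at 24hpa held such a UMI. In cells without endothelial markers nrp1 stood at 26.4 and 35.0 CPM, efnb2 had 8 UMIs and none, and plxnd1 3 UMIs and none. Slit1 (27.4 and 87.5 CPM, 1.68) and efna5 (20.1 and 56.9 CPM, 1.5) were the higher ones. In this cluster the muscle list stood at 36544 and 19266 CPM and the epidermis list at 1550 and 258 CPM. The mesenchyme list stood at 423 and 1750 CPM and the neuron list at 689 and 2057 CPM. The part of these lists was not tested.

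**Figure D5:**
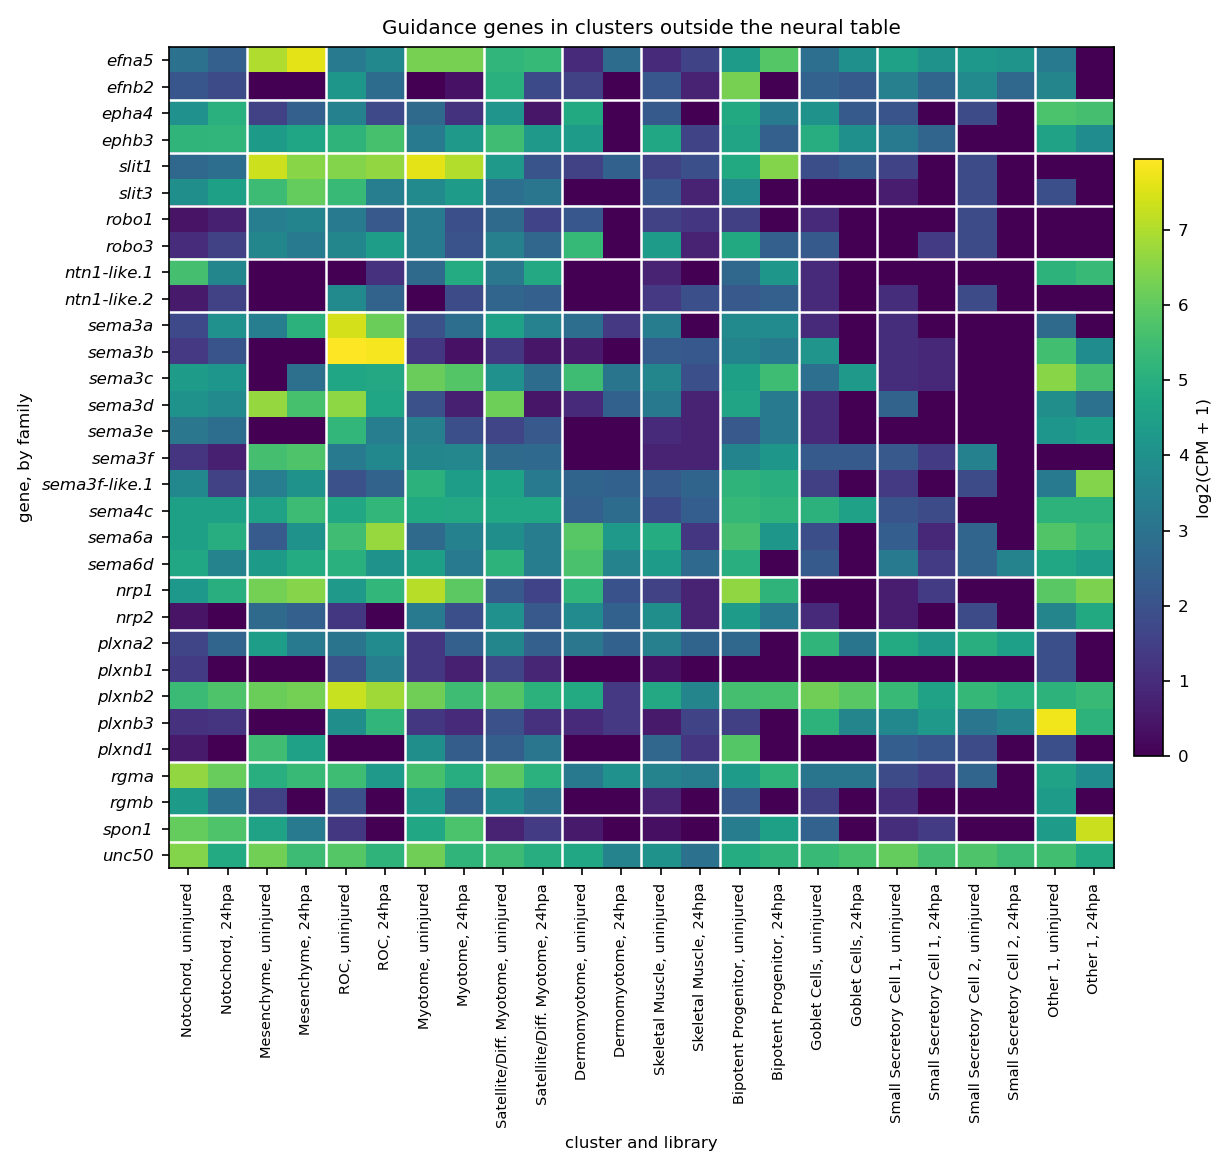
Levels of the 31 members with at least 30 UMIs outside the neural table, as log2(CPM + 1), by gene (rows, grouped by family) and by cluster and library (columns with at least 5 cells). Sema3b and sema3a are brightest in ROC, slit1 in Myotome and Mesenchyme, plxnb3 in uninjured Other 1, and robo3 and epha4 are dark at 24hpa in Dermomyotome.

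In uninjured tails plexins summed to 144 CPM in Goblet Cells and 84.5 CPM in Small Secretory Cell 1, against 71.5 CPM in neural cells. In Goblet Cells 2 of 6 members were lower (background 21.7%) and none higher (background 4.8%), namely plxna2 (-2.25) and plxnb3 (-1.62). In Small Secretory Cell 1 none of 7 was past 2-fold (background 14.3% lower and 3.25% higher). Plxnb3 was brightest in Other 1, with 77 UMIs (217 CPM) in 31 uninjured cells and 5 UMIs (33.8 CPM) in 14 cells at 24hpa. Plxnc1-like.2 (Xetrov90007938m.g), a plexin of class C, was nearly confined to Other 2, with 8 UMIs in 3 uninjured cells and 13 UMIs in 11 cells at 24hpa, of 22 in all. These few cells also held the leukocyte marker lcp1 at 100 UMIs and 216 UMIs.

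The remaining members were sparse. Sema6b, sema6c, plxna4-like.1 and unc5d-like.1 had 12, 8, 7 and 3 UMIs in all called cells, so no level could be compared. Members named as like genes resemble other genes, and reads shared with a near copy could not be told apart here.

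Other genes of the guidance pathway were read beside the members. They were listed with earlier results of these data known, so they give no background for the members. Of 74 listed co-receptors, adhesion molecules, neurotrophic factors and cytoskeletal effectors, 50 matched a row and 42 had at least 30 UMIs in neural cells. At 24hpa 4 were at least 2-fold higher (background 8.07%) and 6 lower (background 8.01%), with a median of 0.05. The higher count was near the share over all genes and the lower count was above it. The higher were gap43 (1.41), a growth cone protein, l1cam (1.34), an axonal adhesion molecule, bdnf (1.10), a neurotrophin, and cxcr4 (1.05), a chemokine receptor. The lower were cfl2 (-3.72), a muscle cofilin, ntf3 (-2.87), a neurotrophin, flrt3 (-2.22), a robo-binding membrane protein, tiam1 (-1.46) and dock1 (-1.22), activators of Rac, and ret (-1.06), a receptor of neurotrophic factors. Cfl2 moved with the muscle list, which stood at 2386 CPM in uninjured neural cells and 857 CPM at 24hpa, and the part of that list was not tested.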

How the data were processed

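The authors deposited unfiltered 10x Genomics (3' V2 kit) UMI counts per gene and barcode, made with Cell Ranger, and 2 tables of called cells with their cluster names after integration. Per the labels the build was GRCz11, a zebrafish assembly, while gene identifiers are of Xenopus tropicalis, so no coordinates are given. Raw counts were summed over the called cells of a cluster in each library (Python 3.11.15, scipy 1.17.1), divided by all UMIs of those cells and compared as CPM. Genes needed 30 UMIs over both libraries in neural cells, or 20 in a cluster with 20 cells per library. A library at 0 UMIs was set to 3 UMIs as a bound. TMM factors came from edgeR 4.0.16. The interval and fold calculations were checked on simulated Poisson counts. That check covers the calculation alone and cannot show how the intervals hold where UMIs gather in a few cells. Values were given in full for members past 2-fold in neural cells, the most abundant member of each family, the 2 highest and 2 lowest ratios past 2-fold in each neural cluster, members with a cluster at least 3 times the next, and the most abundant members outside, and others were named where a count or comparison turned on them, after their values were seen. Depth was 48622597 and 32798976 UMIs, with medians of 8289 and 10374.5 UMIs per called cell. The sort was gated on single cells, no doublet caller was run, and cells over 2 times the median UMIs of their cluster and library were left out as an alternative. The 32 other deposited columns were not used. Members and lists were chosen with earlier results of these data known. The minimum of 5 cells for the highest cluster, the division into ligands and receptors and the alternatives without floor plate, without 1 cell or by endothelial markers were chosen after seeing the data. Alternatives were another scaling, cell means, UMI minimums, folds, cluster makeup, free RNA and depth.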

Additional observations from a re-analysis of the deposited data

Results flagged for a closer look

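The 5 members that follow were past 2-fold in opposite directions in different clusters outside the neural table, with counting intervals clear of 0 on both sides. No such count was made over all genes, so it cannot be read as particular to the members. In each case the difference between clusters was not tested, since each cluster has 1 library per group. Log2 ratios of CPM (24hpa over uninjured) of sema3a were 1.79 in Mesenchyme and 2.70 in Notochord, against -1.27 in ROC, -1.10 in Satellite Cells/Differentiating Myotome and -2.12 in Skeletal Muscle, the last a bound against 3 UMIs. Those of sema6a were 1.2 in ROC, against -1.66 in Dermomyotome and -4.39 in Skeletal Muscle. Epha4 stood at 1.05 in Notochord, against -2.60 in Dermomyotome, a bound, and -5.37 in Satellite Cells/Differentiating Myotome. Slit1 stood at 1.68 in Bipotent Progenitor and -2.55 in Satellite Cells/Differentiating Myotome. Ntn1-like.1 stood at 2.32 in Myotome and 1.74 in Satellite Cells/Differentiating Myotome, against -2.07 in Notochord.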

How the results depend on the processing

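No paired analysis was possible because each group has 1 library and no replicate numbers. In neural cells 3 of 31 members were at least 2-fold higher, against 726 of 8991 genes. The count was 5 by the mean of CPM per cell (988 genes) and 8 at 1.5-fold (1845 genes). With at least 100 UMIs it was 0 of 22 (392 of 6699 genes). Without cells over 2 times the median UMIs it was 7 of 29 (796 of 8582 genes), where efna5, sema4c, spon1 and plxnb3 passed the line. The count of lower members (5, against 720 genes) was 11 at 1.5-fold (1360 genes) and 3 at 3-fold (341 genes). It was 3 when weighted to the uninjured makeup of clusters (653 genes). In all weighted values the floor plate at 24hpa was 1 cell. Without cells over 2 times the median UMIs 2 of 29 members were lower (726 of 8582 genes), and slit1 (-0.84) and ntn1-like.2 (-0.82) fell short. Within neural clusters (13 higher and 24 lower of 100 pairs) a minimum of 50 UMIs left 4 (background 8.22%) and 9 (background 7.1%) of 51. Outside, of 145 pairs of a member and a cluster (12 higher and 56 lower), the mean of CPM per cell gave 22 higher (background 10.7%), and 50 UMIs left 5 (background 7.09%) and 33 (background 16.3%) of 81. Families past 1.5-fold higher (2) were 1 without Motor Neuron (leptin+) and 1 when weighted, and families lower (5) were 3 by the mean per cell, 3 when weighted and 1 without the most abundant member of each family. Without that member netrins stood at 1.04, robos at 1.16 and slits at 0.30, each of the opposite sign. Ephrins stood at -0.0065, almost no difference, from efna2 (1.84) and efnb2 (-1.88). Only a single gene was left for netrins (ntn1-like.1, 7 UMIs uninjured and 7 UMIs at 24hpa) and slits (slit3, 10 UMIs and 6 UMIs). Both genes were under the UMI minimum for neural cells, so these values cannot give the direction of a family. For robos only robo1 was left (23 UMIs and 25 UMIs). Nrp1 in interneurons was 0.14 by the mean per cell against -1.14. The highest cluster was the same for 12 of 31 members in the 24hpa library alone. Floor Plate, Dopaminergic Neurons and Other 1 had under 20 cells there and could not lead. Members with a share of neural cells lower by at least 1.5 times were 5, and 11 for cells with at least 2 UMIs. No count over all genes stands beside these 2 counts, so they cannot be read as particular to the members. The median of receptors lay between -0.73 and -0.29 and that of ligands between 0.13 and 0.47 over the alternatives in neural cells. Epha4 lay between -2.89 and -2.11. Where values moved the cause was not tested, and depth limits the members under 100 UMIs.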
